A study of Canis lupus familiaris with 5 samples.

Results

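Dog chromosome 24 carried 1928 of the 92417 peaks in 3 deposited lists of DNA binding by double homeobox proteins: 1655 of 85825 for human DUX4, 261 of 6031 for canine DUXC and 12 of 561 for the canine isoform DUXC-ALT. All peaks the lists place on that chromosome were taken. The chromosome was chosen because its number of DUXC peaks was high, so that number and the ratios built on it are given as a description, with no test. It was compared with the other 37 of the 38 numbered dog chromosomes, which held 84460 peaks, and most closely with chromosomes 26, 9 and 20, which followed it in DUXC peaks per DUX4 peak. They held 1350, 1941 and 2196 peaks.

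Binding was mapped in immortalized canine myoblasts, cultured precursors of skeletal muscle, by ChIP-seq, the sequencing of DNA pulled down with an antibody to the factor. The 5 groups held 1 library each: DUX4, DUXC, DUXC-ALT, and 2 luciferase lines, for which no peak list was used here. The factors were doxycycline inducible, and the protocol gave 1 µg/ml for 24 hours; the luciferase lines were labelled as not inducible. Cells carried the factors on a transduced vector, and in the canine proteins the C-terminal domain was replaced by that of human DUX4, so that rabbit antisera to that domain could be used. The labels mark the DUX4 and DUXC libraries and 1 luciferase library as monoclonal and the DUXC-ALT library and the other luciferase library as polyclonal, without saying whether this means the cell line or the antibody. Factor, expression level, clonality and library therefore cannot be told apart. There were no biological replicates and no p-values were computed. The intervals below are 95% intervals of counting error only (exact Clopper-Pearson for shares and ratios of counts, order statistics for medians).

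DUX4 is a transcription factor with a pair of homeodomains that bind DNA and a C-terminal domain that activates transcription. It is normally active in the early embryo, and its misexpression in skeletal muscle causes facioscapulohumeral dystrophy. DUXC is a member of the same family found in dogs and some other mammals. Human DUX4 is known to bind many retroviral long terminal repeats (LTRs). Dog chromosome 24 corresponds mainly to human chromosome 20.

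The DUXC list held more peaks on chromosome 24 than its length or its DUX4 peaks would give at the rate of the other chromosomes, while its DUX4 peaks per Mb and its DUXC-ALT peaks per DUX4 peak were close to those of the others. Of the peaks on numbered chromosomes, chromosome 24 held 2.06% in the DUX4 list (interval 1.97 to 2.16%), 4.64% in the DUXC list (4.10 to 5.22%) and 2.22% in the DUXC-ALT list (1.15 to 3.85%). There were 15.8 DUXC peaks per 100 DUX4 peaks on chromosome 24 and 6.83 on the other numbered chromosomes together, a ratio of 2.31 (2.02 to 2.63). At the ratio of the others, chromosome 24 would have held 113.08 DUXC peaks, and it held 261, which is 147.92 more.

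Per megabase covered (47.6 Mb), chromosome 24 held 5.48 DUXC peaks against 2.49 elsewhere and 34.8 DUX4 peaks against 36.5 elsewhere. It ranked first of 38 in DUXC peaks per Mb, ahead of chromosome 20 at 3.60, and 25 of 38 in DUX4 peaks per Mb. Its DUX4 density was thus near that of the others and its DUXC density was higher. In DUXC peaks per 100 DUX4 peaks the others ran from 3.62 on chromosome 32 to 11.4 on chromosome 26, with a median of 6.44. Chromosomes 9 and 20 stood at 10.8 and 10.7. In absolute number only chromosome 1 had more DUXC peaks, with 357. The DUXC-ALT list gave 0.725 peaks per 100 DUX4 peaks against 0.672 elsewhere, which placed chromosome 24 at rank 15. With 12 peaks observed and 11.1 expected at the ratio of the others, the DUXC-ALT list had too few peaks to resolve a difference of modest size.

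**Figure D1:**
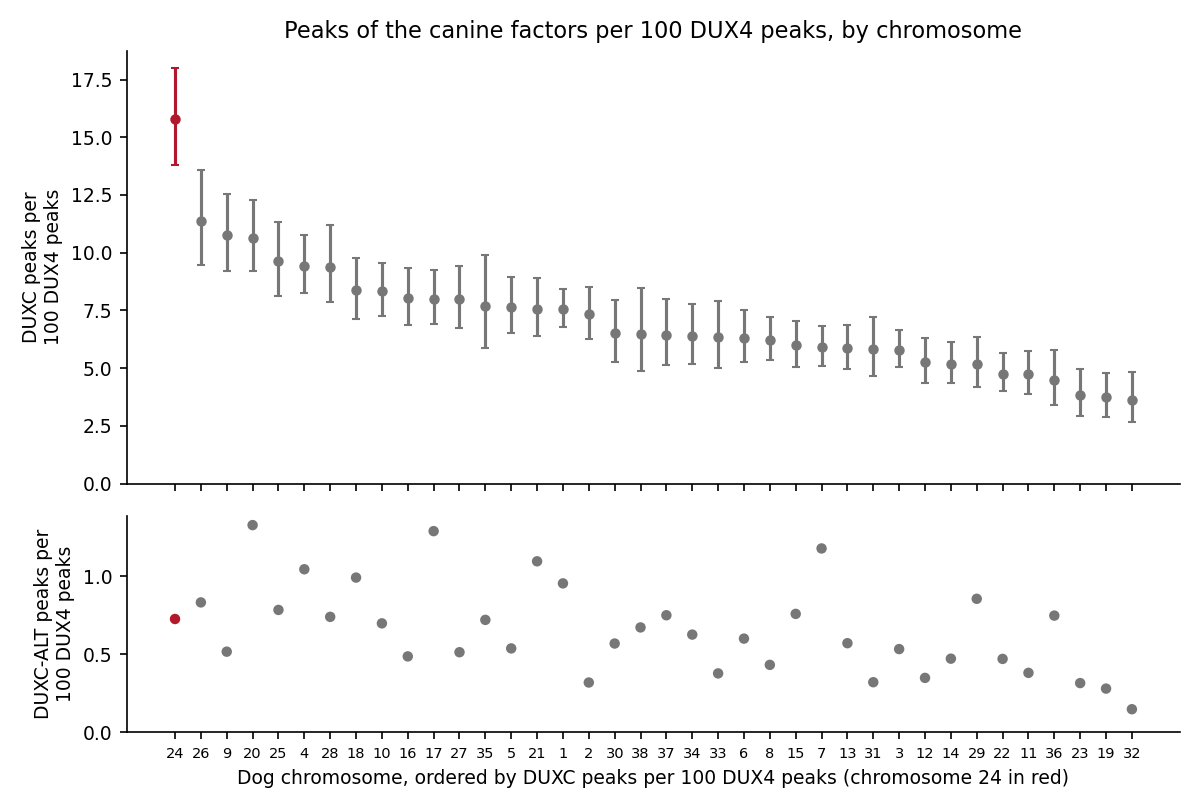
Peaks of DUXC (top) and DUXC-ALT (bottom) per 100 DUX4 peaks for each of the 38 numbered dog chromosomes, in falling order of the DUXC value. Bars in the top panel are 95% counting intervals. The bottom panel has no bars, and its points rest on 2 to 45 DUXC-ALT peaks per chromosome. Chromosome 24 (red) stands at 15.8 in the DUXC panel, above chromosome 26 at 11.4, and at 0.725 among the others in the DUXC-ALT panel.

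The high DUXC count ran along most of the chromosome. In 1 Mb bins, chromosome 24 held from 1 to 11 DUXC peaks per bin, with a median of 5.5 (quartiles 4 and 7), and none of its 48 bins was empty. On the other numbered chromosomes 2172 bins held from 0 to 20 DUXC peaks, with a median of 2 (quartiles 1 and 4), and 325 of them, or 15%, held none. The variance of the bin counts was 1.03 times their mean on chromosome 24 and 1.70 times over the other chromosomes pooled. The value elsewhere includes differences between chromosomes; it was 1.10 on chromosome 9, 1.62 on chromosome 26 and 2.08 on chromosome 20. At least 5 DUXC peaks were found in 32 of the 48 bins (66.7%, 51.6 to 79.6%) and in 314 of the other bins (14.5%, 13 to 16%).

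The ratio of DUXC to DUX4 peaks was above that of the other chromosomes in 44 of 48 bins of chromosome 24, where 44.6% of all bins of the numbered chromosomes were above it. It was more than 2 times that ratio in 28 bins (58.3%), against 19.6% of all bins. Since the chromosome was chosen for this ratio, these shares describe how it was spread and test nothing. On chromosomes 26, 9 and 20, 79.5%, 64.5% and 62.7% of bins were above the ratio, with medians of 4, 3 and 3 DUXC peaks per bin.

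**Figure D2:**
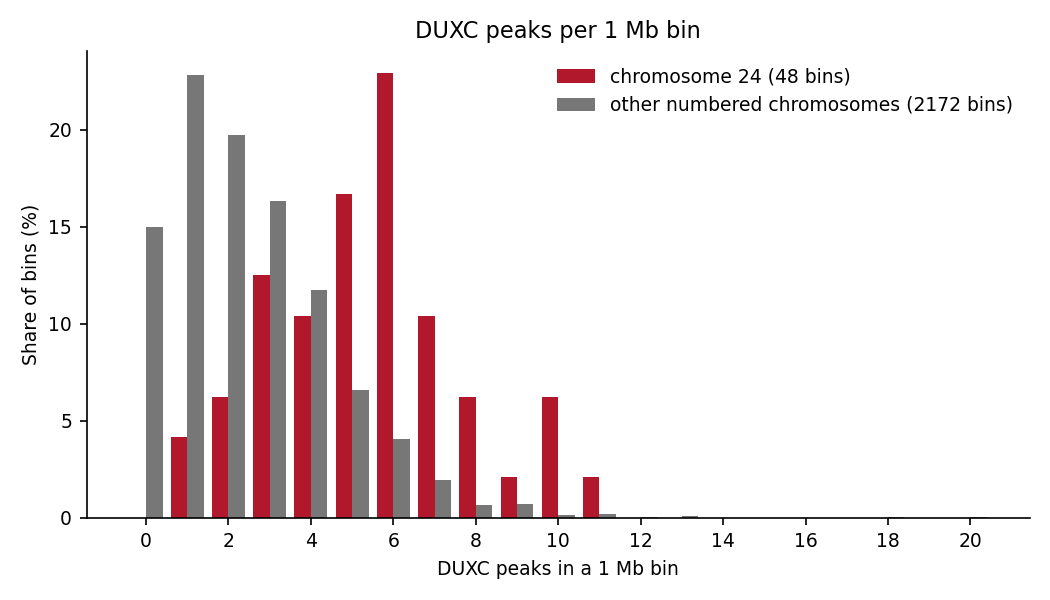
Share of 1 Mb bins (y axis, percent) by their number of DUXC peaks (x axis), for the 48 bins of chromosome 24 (red) and the 2172 bins of the other numbered chromosomes (grey). The whole distribution of chromosome 24 is shifted, with a median of 5.5 against 2 and no empty bin.

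Leaving out the bins richest in DUXC lowered the ratio in steps. Chromosome 24 stood at 15.5 DUXC peaks per 100 DUX4 peaks without its richest bin, 14.4 without 5, 13.5 without 10 and 11.7 without 20. The last value was still 1.72 times that of the other chromosomes, with 110 DUXC and 938 DUX4 peaks left, although removing bins from chromosome 24 alone works against it. The DUXC rate per Mb was 5.9, 4, 6.1 and 6.3 in its first 4 stretches of 10 Mb and 4.75 in the last 8 Mb. Among 203 stretches of 10 Mb on other chromosomes the rate ran from 0.6 to 4.7, with a median of 2.4. Of them, 14 exceeded the stretch from 10 to 20 Mb of chromosome 24, and 0 exceeded any of its other stretches. Per 100 DUX4 peaks the stretches of chromosome 24 stood at 13.8, 9.20, 20.8, 19.7 and 21.2, and 14, 49, 1, 1 and 0 of the 203 were higher.

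The lower rate from 10 to 20 Mb came with 4 neighbouring bins from 13 to 17 Mb, the only 4 bins that were not above the ratio of the other chromosomes. This stretch was picked out after its values were seen. It held 10 DUXC and 210 DUX4 peaks, or 4.76 per 100, and 31 genes named or numbered in the lists. The remaining 44 bins held 251 and 1445, or 17.4 per 100. Its 4 bins held 45 to 60 DUX4 peaks each, above the median of 35 per bin on the chromosome, and 1 to 3 DUXC peaks each. The low ratio thus combined many DUX4 peaks with few DUXC peaks for this chromosome.

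DUX4 and DUXC peaks were spread differently along the chromosome. From 0 to 24 Mb there were 118 DUXC and 966 DUX4 peaks, or 12.2 per 100 (10.0 to 14.8), which was 1.79 times the ratio elsewhere. From 24 to 48 Mb there were 143 and 689, or 20.8 per 100 (17.2 to 24.9), which was 3.04 times. The DUXC-ALT list had 8 and 4 peaks in those stretches. Gene content was alike, at 251 and 243 genes. The higher ratio at 24 to 48 Mb thus combined more DUXC peaks per bin (5.96 against 4.92) with fewer DUX4 peaks per bin (28.7 against 40.25).

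Over the other chromosomes, bins with more genes had more DUXC peaks, and chromosome 24 was rich in genes, with 10.4 per Mb (rank 6 of 38). The ratio is therefore also given within bins of like gene content. In bins with 0 to 7 genes, chromosome 24 had 11.8 DUXC peaks per 100 DUX4 peaks and the other chromosomes 4.78, a ratio of 2.47. In bins with 8 to 11 genes the values were 15.4 and 7.05, a ratio of 2.19. In bins with 12 to 27 genes they were 20 and 9.28, a ratio of 2.16. Bins of chromosome 24 stood higher in each of the 3 groups, which held 14, 16 and 18 of its bins. In DUXC peaks per bin, chromosome 24 stood at 2.45, 2.33 and 1.80 times the others, lowest in the bins with most genes. Only genes nearest to a listed peak were counted, and the chromosome was chosen for its DUXC count. The split is thus a description, and the part of gene content was not tested.

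Peaks of every strength took part. Each list was cut at the quintiles of its own fold enrichment, the authors' ratio of a peak's height to its local background. Peaks of equal value stayed together, so the 5 groups held 1107 to 1145 DUXC peaks and 13852 to 18349 DUX4 peaks. Chromosome 24 held 5.48%, 4.54%, 5.33%, 3.12% and 4.71% of the DUXC peaks from the weakest group to the strongest. Its share of DUX4 peaks was 1.90%, 2.07%, 1.96%, 1.95% and 2.45%. The DUXC share was the higher one in all 5 groups, and the smallest gap was in the fourth. A fold enrichment of at least 10 was reached by 38 of the 261 DUXC peaks, or 14.6% (10.5 to 19.4%), where 12.7% of the whole DUXC list reached it.

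**Figure D3:**
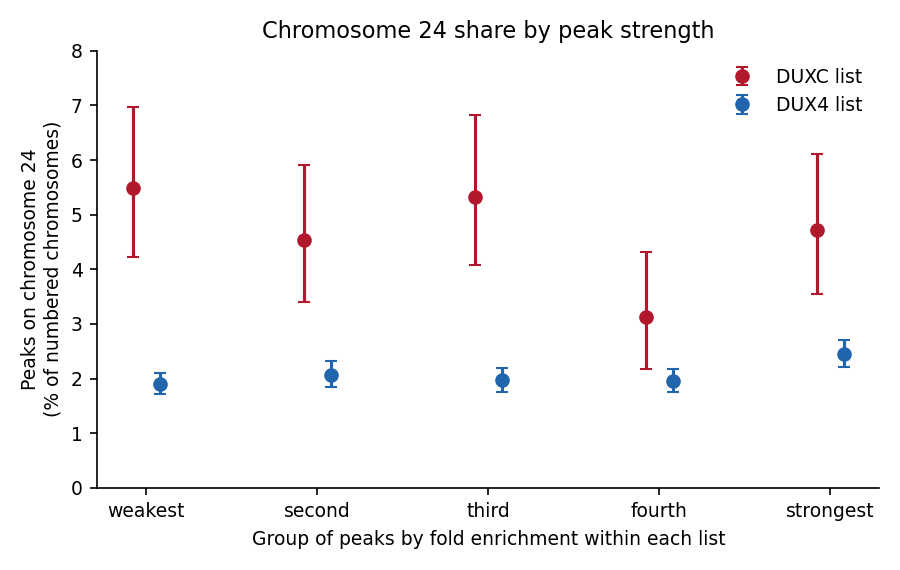
Share of the peaks on numbered chromosomes that lay on chromosome 24 (y axis, percent) in 5 groups of peaks cut at the quintiles of fold enrichment within each list (x axis, weakest to strongest), for DUXC (red) and DUX4 (blue); bars are 95% exact intervals. DUXC shares range from 3.12 to 5.48% and DUX4 shares from 1.90 to 2.45%.

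Typical DUXC peaks of chromosome 24 were like those elsewhere in height. Their median pileup, the signal height the lists give for each peak, was 15 on chromosome 24 and 15 on the other chromosomes. Their median fold enrichment was somewhat lower, at 6.78 (6.58 to 6.92) against 7.10 (7.02 to 7.11). Their median width was 315 bp against 299 bp. The median spacing between neighbouring DUXC summits was 126 kb (106 to 152 kb) against 234 kb (222 to 243 kb). The median spacing of DUX4 summits was 18.3 kb against 17.5 kb.

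The share of DUXC peaks lying on a DUX4 peak was close on chromosome 24 and elsewhere. A DUX4 peak was overlapped by at least 1 bp by 149 of the 261 DUXC peaks, or 57.1% (50.8 to 63.2%), where 55.7% of the whole DUXC list overlapped one. On the other numbered chromosomes it was 56.1% (54.8 to 57.4%), and chromosome 24 ranked 15 of 38. With summits within 100 bp as the rule the order turned, at 47.5% against 50.2%. Shared and unshared DUXC peaks were thus both more frequent: per 100 DUX4 peaks there were 9.0 shared ones against 3.83 elsewhere, and 6.77 unshared ones against 3.0. Of the 261 peaks, 110 overlapped neither other list, or 42.1%, the same share as elsewhere (42.1%).

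Seen from the human factor, 149 of the 1655 DUX4 peaks of chromosome 24 were overlapped by a DUXC peak, or 9.0% (7.67 to 10.5%), where 3.92% of the whole DUX4 list was. Elsewhere it was 3.83% (3.70 to 3.97%). In the same 5 groups of DUX4 peaks by fold enrichment, which held 287 to 392 peaks of chromosome 24, the share on chromosome 24 was 4.30%, 4.53%, 3.51%, 9.87% and 20.2% from weakest to strongest, and elsewhere it was 1.37%, 1.73%, 2.37%, 3.56% and 10.2%. The values of chromosome 24 were higher in all 5 groups, by ratios between 1.48 and 3.14. In the third group the intervals overlapped (1.77 to 6.20% on chromosome 24 and 2.14 to 2.62% elsewhere). The DUXC peaks counted here are among those for which the chromosome was chosen. The shares therefore describe how its excess was spread over DUX4 sites and test nothing.

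**Figure D4:**
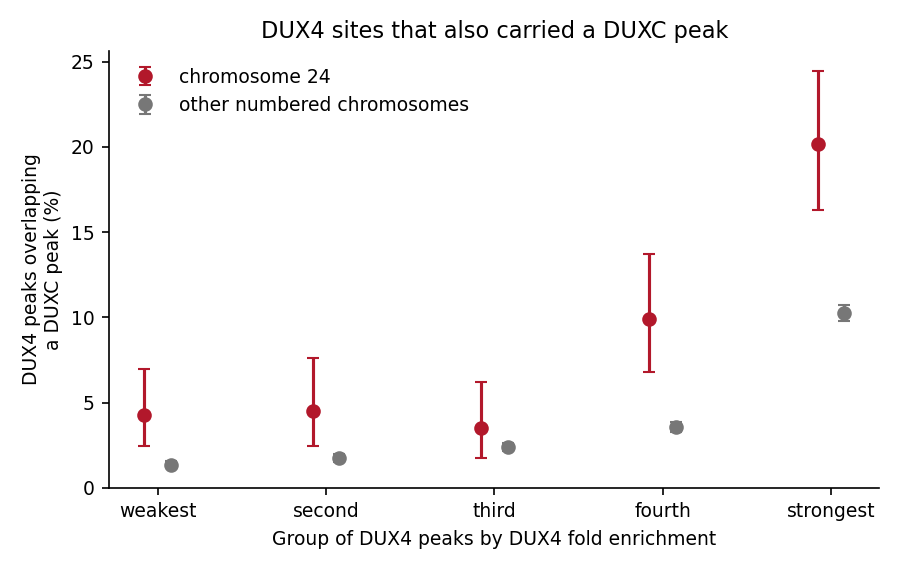
Share of DUX4 peaks overlapped by a DUXC peak (y axis, percent) in 5 groups cut at the quintiles of DUX4 fold enrichment (x axis), on chromosome 24 (red) and the other numbered chromosomes (grey); bars are 95% exact intervals. Chromosome 24 is at 20.2% and the others at 10.2% in the strongest group. Chromosome 24 is the higher one in all 5, with overlapping intervals in the third.

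At shared sites the relative height of the DUXC peaks was not raised. The median ratio of DUXC to DUX4 pileup at sites with both peaks was 0.571 (0.536 to 0.636) on chromosome 24 and 0.579 (0.567 to 0.591) elsewhere. The scale of pileup differs between the lists, so the ratio has meaning only as a comparison among chromosomes, where it ran from 0.496 to 0.691 and chromosome 24 ranked 20 of 38. Shared DUXC peaks had a median fold enrichment of 6.91 on chromosome 24 and 7.24 elsewhere, and unshared ones 6.56 and 6.72. Sites with a peak in both lists were selected by passing the caller's threshold in both lists, and sites below it are not in the lists.

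Local background, worked out per peak from the pileup and the fold enrichment, was rarely at its lowest level on chromosome 24. In each list many peaks share a lowest value, here called the floor, which was 1.09 in the DUX4 list and 0.828 in the DUXC list. The floor was the background of 17 DUXC peaks on chromosome 24, or 6.51% (3.84 to 10.2%), where 16.1% of the whole list was at it. On the other chromosomes it was 17.3%, ranging from 6.57% on chromosome 26 to 53.1% on chromosome 32. In the DUX4 list 210 peaks, or 12.7% (11.1 to 14.4%), were at the floor, where 33.7% of the whole list was, and the range elsewhere was 12.0% on chromosome 26 to 64.4% on chromosome 32. The DUXC-ALT list had 1 of 12 peaks at its floor.

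Median local background was 1.36 (1.26 to 1.36) against 1.21 (1.19 to 1.26) in the DUXC list, 1.58 (1.57 to 1.62) against 1.28 in the DUX4 list, and 0.940 against 0.842 in the DUXC-ALT list. The median of chromosome 24 was above the pooled value of the others in all 3 lists. In the DUXC list 1.36 was the highest median of any chromosome. Chromosomes 26, 9 and 20 had it too. So did many others, from chromosome 28 (9.40 DUXC peaks per 100 DUX4 peaks) to chromosome 36 (4.48). In the DUX4 list chromosome 26 was higher, at 1.67, and chromosome 24 ranked 2 of 38. For DUXC-ALT the median rests on 12 peaks, and its interval (0.649 to 1.00) holds the value elsewhere. Background over 3 times the floor was found at 20 DUXC peaks, or 7.66%, against 7.79% elsewhere. Peaks in regions of strongly raised background thus made up a like share.

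Across the 38 chromosomes, DUXC peaks per 100 DUX4 peaks were higher where fewer peaks were at the floor. Pearson's r was -0.646 (Spearman's rho -0.674) with the floor share of the DUX4 list and -0.508 (rho -0.563) with that of the DUXC list. Without chromosome 24, over 37 chromosomes, r was -0.623 and -0.502. The number of genes per Mb gave r = 0.601 over 38 and 0.645 over 37. The chromosomes share their libraries and the unstated control, so these values are a description. The part of background or gene content in the DUXC count was not tested. Chromosomes 26, 20 and 9, next in DUXC ratio, had 6.57%, 7.18% and 8.51% of DUXC peaks at the floor, close to chromosome 24. Chromosome 16 had 8.24% at the floor and 8.04 DUXC peaks per 100 DUX4 peaks, above the 6.83 of the chromosomes other than 24 together. A low floor share in the DUXC list did not always go with a high ratio. Chromosome 3 had 9.63% and 5.81, and chromosome 7 had 10.5% and 5.91. In the DUX4 list the floor shares of chromosomes 3 and 7 were 28.8% and 28.3%, nearer the median of 31.8% among the chromosomes other than 24. These single cases test nothing. Among peaks at the floor alone the ratio of chromosome 24 to the others was 2.41 (1.38 to 3.95), resting on 17 DUXC peaks of chromosome 24. Among peaks above it the ratio was 1.94 (1.69 to 2.22). Each list was split at its own floor, so the DUXC and DUX4 peaks counted need not lie in the same regions.

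**Figure D5:**
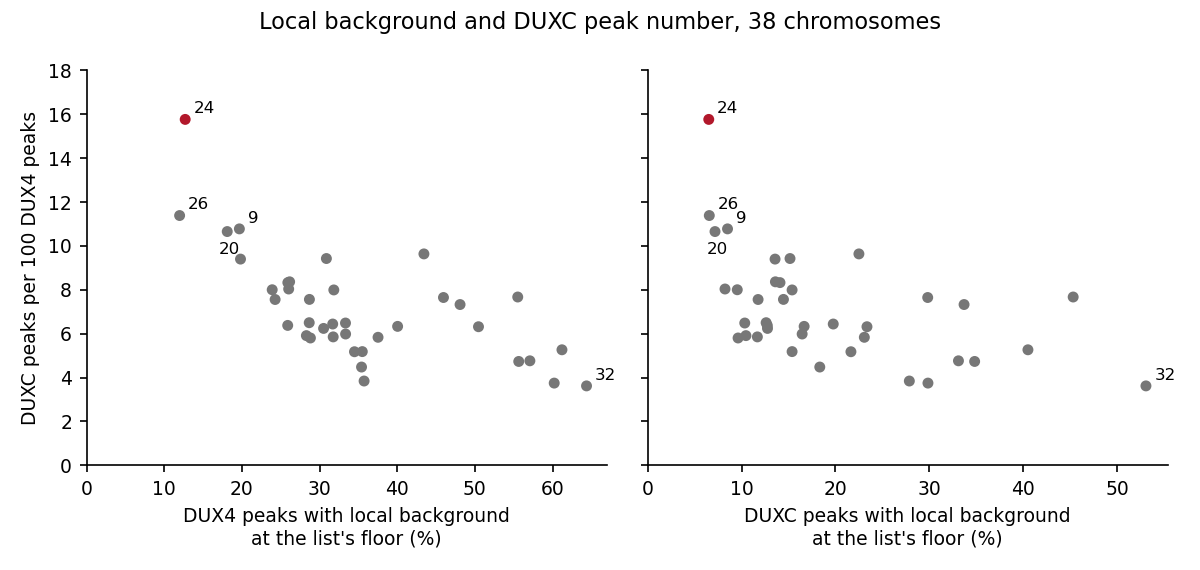
DUXC peaks per 100 DUX4 peaks (y axis) against the share of DUX4 peaks (left) and of DUXC peaks (right) whose local background was at the floor of their list (x axis, percent), 1 point per numbered chromosome. Chromosome 24 (red, 15.8) lies at 12.7% and 6.51%, beside chromosome 26 (11.4) at 12.0% and 6.57%.

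Repeats, many of them remnants of mobile elements, were slightly less often under DUXC summits on chromosome 24. A repeat recorded by the authors held the summit of 108 of the 261 DUXC peaks, or 41.4% (35.3 to 47.6%), against 47.1% (45.8 to 48.4%) elsewhere. Short interspersed elements (SINEs) held 29 summits, or 11.1% (7.57 to 15.6%), where 15.9% of the whole DUXC list lay in one. The dog-lineage SINEC families made up most of this, at 8.81% (5.67 to 12.9%) against 13.9% elsewhere. Long interspersed elements (LINEs) held 37 summits (14.2%, where 15.9% of the list did) and LTRs 38 (14.6%, where 13.7% of the list did). MER21C and MER21B, LTRs of an endogenous retrovirus, held 8 of the summits (3.07%, against 4.30% elsewhere), and the MLT1 group of LTRs held 22 (8.43%, against 6.45%). Counting any overlap with the recorded repeat turned the order for LINEs, at 22.2% against 20.4% elsewhere.

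Among the 38 DUXC peaks with a fold enrichment of at least 10, LTRs held 26.3% of summits (13.4 to 43.1%), against 13.1% (10.6 to 15.8%) of such peaks elsewhere. These intervals overlap. LINEs held 13.2% of them (4.41 to 28.1%) against 5.95% (4.30 to 7.99%), and these intervals overlap as well. For DUX4, LTRs held 13.6% of summits on chromosome 24 (12.0 to 15.3%) and 11.7% elsewhere (11.5 to 11.9%), and MLT1 elements 10.6% and 8.57%. Of the 12 DUXC-ALT peaks, 3 had their summit in MER21C or MER21B, or 25% (5.49 to 57.2%), where 49.9% of that list did.

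Relative to genes, the shares of DUXC peaks of chromosome 24 within 5 kb and 1 kb of a start site were within counting error of those elsewhere. At 5 kb chromosome 24 ranked 20 of 38. More of its peaks lay within 50 kb of one (77.0%, 71.4 to 82.0%, against 71.2%, 70.0 to 72.4%). Within 5 kb of a transcription start site there were 42 of the 261, or 16.1% (11.9 to 21.1%), where 16.6% of the whole list was. Within 1 kb there were 7, or 2.68% (1.08 to 5.45%), where 4.66% of the list was. Introns held 97 peaks (37.2%, against 32.9% elsewhere) and 129 were called distal intergenic (49.4%, against 52.2%). In the terms of genes, 39 of the 494 genes the lists place on chromosome 24 had a DUXC peak within 5 kb, or 7.89%, against 4.40% of genes elsewhere. For DUX4 these values were 35.0% and 37.3%, so chromosome 24 had the higher share for DUXC and the lower one for DUX4. The chromosome was chosen for its DUXC count, so its higher share of genes with a DUXC peak comes with that choice and tests nothing.

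The strongest DUXC peak near a named gene lay in intron 4 of 4 of COX4I2, which encodes a subunit form of cytochrome c oxidase (chr24:21132730-21133210). It had a fold enrichment of 18.3 and a pileup of 42, its summit lay in a MER21C element, and no DUX4 or DUXC-ALT peak overlapped it. KIAA1755 had a peak of 14.0 in intron 8 of 13 (chr24:26717644-26718096), over a DUX4 peak with a fold enrichment of 15.6 in its own list. SDC4, a cell-surface heparan sulfate proteoglycan, had a peak of 12.8 in intron 1 of 4 (chr24:32642166-32642587), over a DUX4 peak of 7.06.

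Other strong DUXC peaks lay near CHD6, a chromatin remodelling helicase (12.8, 4442 bp upstream of the start, chr24:29605639-29606235), and in the 3′ UTR of REM1, a small GTPase (12.4, chr24:21000859-21001205). Neither overlapped a DUX4 peak, and the peak in intron 5 of 6 of TOMM34, a protein of mitochondrial import (12.0, chr24:32354643-32355046), did not either. A peak of 12.3 near PTGIS, the prostacyclin synthase, had its summit in an MLT2D element and overlapped a DUX4 peak of 7.23. A peak of 11.8 near ZMYND8, a chromatin reader, had its summit in an MLT1N2 element and overlapped a DUX4 peak of 8.21. With the promoter peak of BANF2 described next, 9 strong peaks with a named nearest gene are given here, and 5 of them overlapped DUX4. Of all 38 DUXC peaks of the chromosome with a fold enrichment of at least 10, 63.2% did.

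Named promoters were few. DUXC peaks lay within 1 kb of a start of 5 named genes, in 6 peaks. BANF2, a relative of the barrier-to-autointegration factor, had a peak of 12.0 located 84 bp upstream (chr24:5308722-5309090), over a DUX4 peak of 10.5. ZNF217, a zinc finger repressor studied as an oncogene in human breast cancer, had 2: one of 11.0 at 300 bp upstream of a start (chr24:39423839-39424187) and one of 8.48 at the start itself (chr24:39438107-39438515). DUX4 peaks of 10.8 and 14.1 overlapped them. The kinase gene STK35 (7.22, DUX4 12.0) and PSMF1, which encodes a proteasome regulator (6.44, DUX4 14.9), also carried both factors, while the peak at L3MBTL1, a reader of methylated histones (6.34, 967 bp downstream), met no DUX4 peak.

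Of the 10 strongest named DUX4 peaks of the chromosome, 4 met a DUXC peak, where 20.2% of the strongest of the 5 groups of its DUX4 peaks did. The 6 without DUXC lay in intron 1 of 6 of TMX4, a thioredoxin-related membrane protein (26.9), in intron 2 of 11 of RIN2, a regulator of Rab GTPases (26.3), near BMP2, a bone morphogenetic protein (25.1, 106509 bp from its start), in intron 1 of 18 of TRPC4AP (23.3), in intron 1 of 11 of PCSK2, a prohormone convertase (22.5), and near PRNP, the prion protein gene (20.6). The 4 with a DUXC peak were the one in intron 7 of 9 of UQCC1 with FAM83C as its nearest gene (25.7, DUXC 8.20), the one in intron 11 of 21 of RBL1, a pocket protein of the cell cycle (23.3, DUXC 10.6), the one in intron 2 of 11 of PIGU (22.5, DUXC 7.56) and the one 29298 bp upstream of CHD6 (20.3, DUXC 8.75).

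All 12 DUXC-ALT peaks lay more than 5 kb from any start, where 16.2% of the DUXC-ALT list lay within 5 kb of one. The strongest, at 10.2, lay in intron 6 of 11 of DLGAP4 with MYL9, a myosin light chain, as its nearest gene, and the next at 8.52 in intron 10 of 12 of TASP1, a protease. One of 7.23 in intron 29 of 29 of PLCB1, a phospholipase C, had its summit in a MER21C, and 2 had PRNP as nearest gene (6.59, in a MER21C, and 4.40). One of 6.16 had INSM1, a zinc finger regulator of endocrine and neural cells, as nearest gene, 146419 bp away. Of the 12, 4 overlapped a DUXC peak, where 26% of the DUXC-ALT list did.

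Peaks in all 3 lists were found at 2 sites, or 0.766% of the DUXC peaks, against 0.745% elsewhere. At chr24:11625834-11626239, where the recorded repeat was an MLT1J1 element and the nearest gene had no name, fold enrichment was 9.32 in the DUXC list, 11.4 in the DUX4 list and 8.23 in the DUXC-ALT list. At chr24:16837949-16838236, with PRNP as the nearest gene, it was 7.41, 5.50 and 4.40.

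Of the 5 bins with most DUXC peaks, 4 lay between 29 and 40 Mb. The 5 were 39 to 40 Mb (11 DUXC and 38 DUX4 peaks), with ZNF217, TSHZ2, BCAS1 and CYP24A1, 4 to 5 Mb (10 and 42), with DZANK1 and SCP2D1, and 29 to 30 Mb (10 and 44), with CHD6 and TOP1. The bins at 31 to 32 Mb (10 and 26), with IFT52, L3MBTL1 and TOX2, and at 34 to 35 Mb (9 and 40), with EYA2 and ZMYND8, followed. DUXC peaks had 104 named genes of the chromosome as their nearest gene. Of these, 24 had 2 or more peaks, and CHD6, ZNF217, ISM1, SEL1L2 and GNAS had 3 each. The nearest gene could be far away: the peaks of ISM1 lay 120870 to 172243 bp from its start, and those of ZNF217 within 5363 bp. No matching count for the other chromosomes is given, and the chromosome was chosen for its many DUXC peaks.

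Gene groups of the chromosome were counted by a DUXC peak within 5 kb of a start, which held for 25 of its 288 named genes (8.68%), where 5.48% of named genes in all the lists had one. This higher share comes with the choice of the chromosome for its DUXC count. Of 17 developmental regulators in the lists, 1 had such a peak (ZNF217). Of 15 signalling genes, 1 did (GNAS, the stimulatory G protein subunit, 5.26). Of 5 cell cycle and chromatin genes, 1 did (TOP1, a topoisomerase, 5.38), and of 4 muscle genes, 0 did. DUX4 peaks lay within 5 kb of 6, 6, 3 and 1 of these genes, the muscle gene being MYL9, where 35.1% of the named genes of the chromosome had one and 38.3% of named genes in all the lists did. These small counts describe the groups and single out none of them.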

How the data were processed

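The data were 3 peak lists, 1 per factor, with 1 library each. Every peak's name begins with 1 library's title, and peak calling was accordingly read as done for each library alone. Per the submitters' processing notes, the tools were MACS2 2.1.0, BWA 0.7.10 and CASAVA, and the build was canFam3, with no roles given. The control library, the threshold and later filters are not given in the sources used here. In the deposited DUXC-ALT list the smallest −log10 q-value was 2.08, and in each of the others 2.03. The deposited pileup was read as the signal height of a peak. The authors' fold enrichment was read as a ratio, the height over the caller's local background, and was used only within a list. Read depth is unknown from these files, and no read counts were available for a count model.

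From these values the local background was computed as (pileup + 1) / fold enrichment − 1. The floor of a list was its percentile 1, and peaks within 1% of it were called at the floor. Peaks overlapped where they shared at least 1 bp. Bins were 1 Mb wide and took peaks by summit. A repeat held a peak where the summit lay inside the 1 repeat the authors recorded. Distances to start sites, nearest genes and introns are the authors'; genes without a symbol were counted and not named, and the genes counted are those the lists name as nearest to a peak. Shares carry exact Clopper-Pearson intervals. Coordinates are canFam3, counted from 1. Python 3.11.15, numpy 2.4.6, pandas 2.3.3, scipy 1.17.1 and matplotlib 3.10.9 were used. The overlap step was tested on simulated peaks, where 0 of 261 were wrongly classed.

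Named sites were, on chromosome 24, the 10 DUXC and 10 DUX4 peaks of highest fold enrichment with a named nearest gene, all DUXC-ALT peaks, DUXC peaks within 1 kb of a named start, sites in all 3 lists, and named genes of the 5 bins with most DUXC peaks; 1 of these sites is not reported here. The members and the gene lists were chosen with earlier results of these data known. Alternatives changed the bin size, fold and q minimum, overlap rule, repeat rule, start distance, background filter and background set. Leaving out the 10 richest bins, or splitting peaks at the floor, was chosen after seeing the data.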

Additional observations from a re-analysis of the deposited data

How the results depend on the processing

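Of 72 alternative values, 41 moved by less than their counting error and 31 by more; none of the 12 alternatives of the DUXC to DUX4 ratio put chromosome 24 below the others. The bins above the ratio of the other chromosomes made up 81.25% at 0.5 Mb, 95.8% at 2 Mb and 87.5% without raised background. With a fold enrichment of at least 10, the DUX4 share of chromosome 24 was 2.32%, its DUXC share 5.23% and its DUXC-ALT share 1.02%. That DUXC-ALT share rested on 1 peak, with an interval of 0.0258 to 5.55%. Without the 5 richest bins its share was 1.83% for DUX4 and 3.78% for DUXC, and its DUX4 share over all sequences was 1.93%. The ratio of 2.31 became 1.97 without the 10 richest bins and 1.94 above the floor. The order of chromosome 24 and the others turned for DUXC overlap with DUX4 by summits, for LINEs by any overlap or at a fold of at least 10, and for start sites within 50 kb. DUXC overlap with DUX4 was 47.5% on chromosome 24 and 50.2% elsewhere with summits within 100 bp, and elsewhere 52.9% with 50% of both peaks and 52.2% at a fold of at least 10. Median local background in shared peaks was 1.78 on chromosome 24 and 1.53 elsewhere for DUX4, and 1.19 elsewhere for DUXC. Without raised background, it was 1.26, 1.19 and 0.770 elsewhere for DUX4, DUXC and DUXC-ALT. Counting any overlap with the repeat, SINEs held 24.5% of DUXC peaks against 31.3% elsewhere and LINEs 22.2% against 20.4%, with LTRs at 16.8% elsewhere. At a fold of at least 10, SINEs held 15.8% against 20.8%, LINEs 5.95% elsewhere and LTRs 26.3% on chromosome 24. Starts lay within 1 kb of 2.68% against 4.81% and within 50 kb of 77.0% against 71.2%. The cause of these moves was not tested, beyond what a wider or narrower rule counts by its construction. No paired analysis was possible because each factor had 1 library and the results come from no test. The number of DUXC-ALT peaks (12) and the unknown read depth limit all statements on that isoform.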

Other observations

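Several of the strongest DUXC peaks of chromosome 24 had no named nearest gene. The strongest of them, at chr24:39824521-39825138, had a fold enrichment of 16.9 in the DUXC list and lay over a DUX4 peak of 16.9. One in an intron of an unnamed gene carried an MLT1E1A element (14.8, chr24:34855708-34856282, DUX4 18.1), and one carried MER21C (14.2, chr24:12330978-12331376, DUX4 9.68). A peak of 13.8 with its summit in a SINEC_b1 element (chr24:13939681-13940060) met no DUX4 peak and lay inside the stretch from 13 to 17 Mb that held few DUXC peaks. A DUXC peak with TFAP2C, a transcription factor gene, as its nearest gene had a fold enrichment of 7.90 and met no DUX4 peak.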
